A study of Mus musculus with 9 samples.

Results

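Nf1 and 9 genes that respond to or dampen RAS-MAPK signalling (Spry2, Spry4, Spred1, Spred2, Dusp4, Dusp5, Dusp6, Phlda1 and Ier3) are described here across 9 mouse RNA-seq libraries. The 10 genes were taken by name out of 14771 named genes, and all 10 passed the filter on low values. Messenger RNA was compared between olfactory bulb tumour cells (OB), brainstem tumour cells (BS) and astroglia (AG), with 3 libraries in each group. OB and BS cells came from mice of a mixed 129;C57BL/6 strain, with Foxr2 overexpression and a p53 cko allele. AG cells came from C57BL/6 mice and were labelled p53 DN and Nf1 shRNA, so a change at p53 was named in all 3 groups and Foxr2 overexpression in the tumour groups only. The promoter or cell type that drives Foxr2, the meaning of the numbers in the tumour library titles, and whether the 3 libraries in a group are separate animals, clones or cultures are not given in the labels. The p-values therefore reflect only how far these samples differ from each other, and that spread can be technical. Because cell type, site, strain, genotype and shRNA differ together between the tumour groups and AG, these factors cannot be told apart in any comparison against AG.

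RAS proteins switch on the RAF, MEK and ERK kinase cascade, and neurofibromin, the product of Nf1, switches RAS off by speeding its hydrolysis of GTP. Active ERK raises transcription of its own inhibitors: Sprouty proteins act upstream on RAS and RAF activation, SPRED proteins recruit neurofibromin to the membrane, and dual-specificity phosphatases of the DUSP family remove the activating phosphates from ERK. Because of this loop, Spry2, Spry4, Dusp4 and Dusp6 are widely used as transcript readouts of ERK output, and loss of NF1 is a known driver of gliomas.

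Values are normalized reads, the reads of a RefSeq transcript divided by a size factor for its library, and are compared between libraries and not between genes. Libraries held 11300273 to 13927771 reads in OB, 12680832 to 15282668 in BS and 14987773 to 19868282 in AG. OB_257 and BS_287 stood apart from the other tumour libraries: log2 levels of OB_257 correlated at 0.841 to 0.844 with the 3 BS libraries, and those of BS_287 at 0.869 and 0.919 with OB_295 and OB_287, against 0.942 to 0.947 for the other pairs of an OB and a BS library. On the log2 scale the SD between libraries of a typical (median) gene was 0.48 in OB, 0.47 in BS and 0.12 in AG. The 7 astrocyte markers in the table summed to 6723 to 29704 normalized reads in OB and 14430.2 to 27617 in BS, against 5746.5 to 6288 in the libraries labelled astroglia. Of the markers with a single RefSeq transcript, Gja1 was highest in AG, with 4961 to 5396 normalized reads. Slc1a3 (753 to 856 in AG) was higher in every tumour library except OB_257. S100b (at most 27.2 in AG) was higher in every tumour library except BS_287, where it had 5.87. Gja1 made up most of the AG sums, and S100b most of the OB_257 sum (6616 of 6723). Slc1a3 made up most of the sums in the other tumour libraries. Gfap and Aqp4 had at most 3.27 normalized reads in AG, but have several RefSeq transcripts, for which low values in this table are not read as low expression. The 6 fibroblast markers in the table summed to 9.95 to 401 normalized reads in OB and 528 to 4395 in BS, against 35642 to 46411 in AG. Col1a1, with 35280 to 46039.5 in AG, made up nearly all of the AG sums. Thy1, a marker on that list with 0 reads in every AG library, made up nearly all of the BS sums, and without it they were 9.95 to 120.6 in OB and 12.6 to 14.9 in BS. The 7 oligodendrocyte precursor markers summed to 45533 to 84237.5 in OB and 47921 to 94373.5 in BS, against 17.4 to 22.5 in AG. These sums hide differences between tumour libraries within the list. Sox10 had 30528 normalized reads in OB_257 and 3.36 in BS_287, against 29.9 to 13223 in the other tumour libraries. Olig1 had 2289 in OB_257, against 18919 to 39643 in the other tumour libraries. In bulk RNA fewer cells of a type cannot be told apart from less RNA per cell. The part of this cell makeup in the results below was not tested. Foxr2 had 4505 to 6814 normalized reads in OB and 7377 to 12567 in BS, against 1 read over all AG libraries.

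Promoters are shown for Spry2, Dusp6 and Dusp5, whose levels differed most between tumour libraries among the 7 members found in the RefSeq promoter table (GRCm38.p6; Dusp4, Phlda1 and Spry4 were not matched). Each sequence runs from 250 bases before the start site through the first 30 bases of the transcript. Capitals mark TNAATGNA, the form of octamer bound by Capicua (CIC), a repressor that ERK inactivates, in Spry2 and Dusp6, and CArG boxes, the element bound by serum response factor, in Dusp5. Spry2 lies at chr14:105896790-105897069 on the minus strand, Dusp6 at chr10:99262981-99263260 on the plus strand and Dusp5 at chr19:53528895-53529174 on the plus strand.
Spry2: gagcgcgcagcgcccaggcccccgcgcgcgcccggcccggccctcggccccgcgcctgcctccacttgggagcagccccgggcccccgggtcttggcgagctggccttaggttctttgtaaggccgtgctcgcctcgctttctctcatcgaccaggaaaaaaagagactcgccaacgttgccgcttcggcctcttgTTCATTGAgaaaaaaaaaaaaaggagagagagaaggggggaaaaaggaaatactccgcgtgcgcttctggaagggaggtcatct
Dusp6: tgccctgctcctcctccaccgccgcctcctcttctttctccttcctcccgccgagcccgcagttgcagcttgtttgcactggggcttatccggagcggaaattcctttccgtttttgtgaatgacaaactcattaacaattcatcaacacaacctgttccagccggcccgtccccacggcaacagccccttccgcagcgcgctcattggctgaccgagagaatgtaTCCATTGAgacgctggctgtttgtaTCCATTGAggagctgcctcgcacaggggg
Dusp5: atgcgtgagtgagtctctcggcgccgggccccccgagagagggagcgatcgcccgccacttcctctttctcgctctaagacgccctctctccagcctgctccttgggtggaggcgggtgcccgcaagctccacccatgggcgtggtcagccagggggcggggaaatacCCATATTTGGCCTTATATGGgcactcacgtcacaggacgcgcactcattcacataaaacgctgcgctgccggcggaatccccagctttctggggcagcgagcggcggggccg
The CIC motif began 54 bases before the start site in Spry2, and at 24 bases before it and 1 base after it in Dusp6. On either strand it occurs in 11.7% of 32851 promoter windows of 300 bases, and in 6.72% of the 9562 windows of genes tested here. The adjoining CArG boxes of Dusp5 began 82 and 72 bases before the start site, and 1.63% of all windows hold such a box, as do 1.41% of those of tested genes. The ETS core CCGGAA, present in 14.9% of all windows and 26.5% of those of tested genes, began 33 bases after the start site in Spry2 and 216 bases before it in Nf1. The AP-1 motif TGANTCA, present in 7.81% of all windows and 4.93% of those of tested genes, was in none of the 7 member windows, and neither Spred1, Spred2 nor Ier3 held any of these 4 motifs. These matches describe letters in the windows and are not evidence of binding.

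Nf1, the gene named by the shRNA label of AG, had higher transcript levels in both tumour groups. Nf1 had 8619.7, 4184 and 4666 normalized reads in OB_257, OB_287 and OB_295, and 6239, 5045 and 4642 in BS_287, BS_295 and BS_296, against 1334, 1470.4 and 1588 in AG_1, AG_2 and AG_3. Every tumour library lay above every AG library, and OB_257 was the highest of all. Group means were 5823 ± 2434 in OB and 5309 ± 830.3 in BS, against 1464 ± 127 in AG (SD, n = 3 each). Changes were tested with limma, a moderated linear model fitted to all 9 libraries and all tested genes, and a gene was called, or passed, at a Benjamini-Hochberg adjusted p under 0.05. For each gene the fit takes 1 spread for all 3 groups. Nf1 rose in OB against AG by 1.92 ± 0.27 (SE) in log2(normalized reads + 1), a scale that shrinks differences of genes with few reads (limma adjusted p = 0.000886). It rose in BS against AG by 1.85 ± 0.27 (limma adjusted p = 0.00109). Both calls held in each of the 9 fits that left out 1 library. OB and BS differed by 0.07, with a 95% interval of -0.55 to 0.68 (limma adjusted p = 0.962). No astroglia without the shRNA were analysed, so the difference cannot be assigned to knockdown in AG or to a higher level in the tumour cells.

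**Figure D1:**
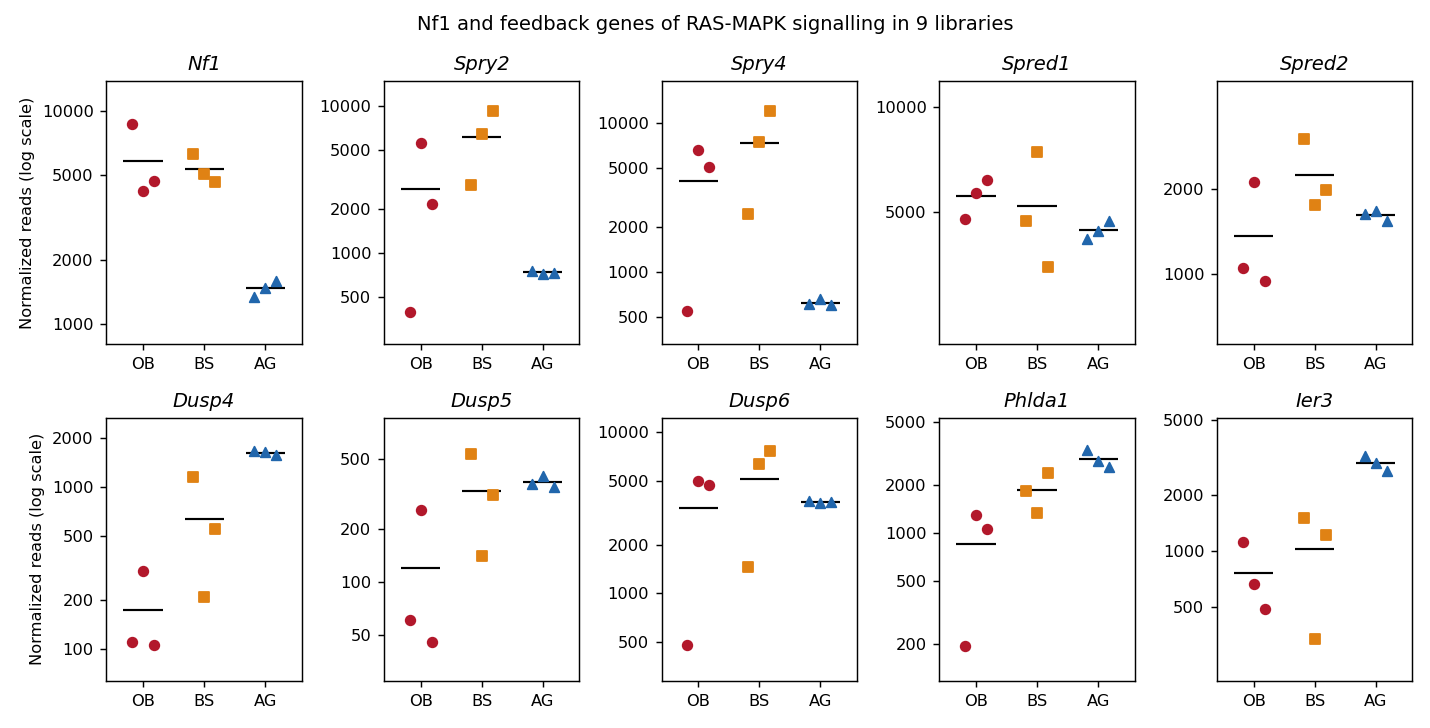
Normalized reads of the 10 genes on a log scale, 1 panel per gene, with a point per library and a bar at the mean for OB, BS and AG. AG points lie close together in every panel, while Spry2, Spry4 and Dusp6 spread widely in OB and BS and Nf1 lies above AG in all 6 tumour libraries.

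Omg, which encodes oligodendrocyte myelin glycoprotein, lies within an intron of Nf1 on the opposite strand. Omg had 408, 305.5 and 4113.5 normalized reads in OB_257, OB_287 and OB_295 and 1.68, 990.0 and 753 in BS_287, BS_295 and BS_296, against 0.834, 0 and 0 in AG_1, AG_2 and AG_3. The ratio to AG was 4874 in OB (exact 95% counting interval 874 to 192554) and 1687.5 in BS (302.5 to 66691), resting on 1 AG read, and these intervals cover counting error only. In BS_287, where Omg was near 0, Nf1 stood at 6239 normalized reads, within the range of the other tumour libraries. The part of Omg reads in the Nf1 values was not tested. Evi2a, another gene nested in Nf1, had at most 5.53 normalized reads in any library. It has 2 RefSeq transcripts and 1 was counted, so this is not read as low expression. The antisense transcript AU040972 had 16.2 to 76.1 normalized reads in OB and 0 to 19.2 in BS, against 0 in every AG library. The strand setting of the counting is not given, so reads of antisense and overlapping transcripts cannot be told apart.

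By the root mean square difference of centred log2 profiles over the 9 libraries, the genes most like Nf1 were Rnf130 (0.15), Pus7l (0.18), Zbed4 (0.21), Gpc2 (0.23) and Adgrl1 (0.24). Rnf130, for example, had 1547, 954.5 and 1158.5 normalized reads in OB and 1287, 889 and 1045 in BS, against 298.5, 315 and 315 in AG. No other member was near Nf1 by this measure. Spred1 was the closest, at 0.89, and 2755th among 10575 genes.

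The SPRED genes, whose products bind neurofibromin and bring it to RAS at the membrane, did not pass the test in any of the 3 comparisons. Spred1 had 4792, 5679.5 and 6195 normalized reads in OB_257, OB_287 and OB_295 and 4711, 7421 and 3498 in BS_287, BS_295 and BS_296, against 4208, 4426 and 4727 in AG. Its OB libraries all lay above AG by a small margin, with a log2 difference of 0.31 and a 95% interval of -0.27 to 0.90 (limma adjusted p = 0.377), while BS spread across AG. Spred2 had 1054, 2104 and 948 normalized reads in OB and 2985, 1752 and 1985 in BS, against 1629, 1666 and 1543 in AG. All BS libraries lay above AG for Spred2, with a log2 difference of 0.44 and an interval of -0.29 to 1.17 (limma adjusted p = 0.323), and OB libraries lay on both sides of AG. Spred3, a further SPRED gene, averaged 1232 ± 279 in OB and 1413 ± 145 in BS, against 1054 ± 84.8 in AG (SD, n = 3 each), and did not pass either.

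The Sprouty genes, feedback inhibitors induced by receptor tyrosine kinase signalling, rose in BS against AG. Spry2 had 399, 5575 and 2158 normalized reads in OB_257, OB_287 and OB_295 and 2898, 6466 and 9248 in BS_287, BS_295 and BS_296, against 756, 722 and 736 in AG. Spry4 had 544, 6565.5 and 5017 in OB and 2456, 7434.5 and 11887 in BS, against 608, 654 and 596 in AG. For both genes every BS library and the other OB libraries lay above AG, and OB_257 alone lay below it. In BS against AG the log2 change was 2.92 ± 0.84 (SE) for Spry2 (limma adjusted p = 0.0277) and 3.28 ± 0.92 for Spry4 (limma adjusted p = 0.0241). Both were lost when any AG library, BS_295 or BS_296 was left out, with limma adjusted p from 0.0703 to 0.0890 for Spry2 and 0.0649 to 0.0810 for Spry4. edgeR on the recovered reads called both (adjusted p = 0.0197 for Spry2 and 0.0140 for Spry4).

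In OB against AG neither Sprouty gene passed, at 1.19 ± 0.84 (SE) for Spry2 (limma adjusted p = 0.303) and 2.08 ± 0.92 for Spry4 (limma adjusted p = 0.112). Without OB_257 the differences were 2.23 for Spry2 (limma adjusted p = 0.0137) and 3.21 for Spry4 (limma adjusted p = 0.00380), and both were called. edgeR called Spry4 with all libraries in (adjusted p = 0.0343) and not Spry2 (adjusted p = 0.0902), and DESeq2 called both (adjusted p = 0.0373 for Spry2 and 0.00238 for Spry4). OB_257 also had the fewest reads of Slc1a3, a glial glutamate transporter, among the tumour libraries, with 88.4 normalized reads against 11447 to 25665 in the other 5. It was lowest for the astrocyte marker Gja1 too (1.11 against 369 to 2879), but highest for the astrocyte marker S100b (6616 against 5.87 to 5555). It had the highest sum of mature oligodendrocyte markers, with 28808 against 169 to 9786 in the other 5. The part of this makeup in the Sprouty levels was not tested. OB and BS did not differ beyond the test, at -1.72 for Spry2 with a 95% interval of -3.65 to 0.20 and -1.20 for Spry4 with an interval of -3.29 to 0.89.

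The 2 Sprouty genes had the closest pair of profiles among the members. Of 10575 genes, Spry2 was the one most like Spry4, with a root mean square difference of 0.46, followed by Sall2 (0.49), Hs3st3a1 (0.52), Disc1 (0.53) and Mir6390 (0.58). The last 4 are low genes, with at most 85.7 normalized reads in any library.

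Dusp6, a phosphatase of the cytoplasm that acts on ERK, did not follow the Sprouty genes in its comparison with AG. Dusp6 had 475, 4958 and 4695 normalized reads in OB_257, OB_287 and OB_295 and 1459, 6311 and 7684 in BS_287, BS_295 and BS_296, against 3730.4, 3613 and 3691.5 in AG. OB_257 and BS_287 lay below all AG libraries and the other 4 tumour libraries above them. Dusp6 differed by -0.72 in OB against AG, with a 95% interval of -2.85 to 1.41 (limma adjusted p = 0.583), and by 0.17 in BS against AG, with an interval of -1.96 to 2.30 (limma adjusted p = 0.903). With OB_257 and BS_287 both left out, an alternative chosen after seeing the data, Dusp6 was higher by 0.39 in OB (limma adjusted p = 0.0448) and by 0.92 in BS (limma adjusted p = 0.00125). The sign in OB and the call in both groups thus turned on these libraries. The genes with the profiles most like Dusp6 were Lrig1 (0.37), which encodes an inhibitor of receptor tyrosine kinases, 2610203C22Rik (0.42), Pcdhgc3 (0.43), Camk2n2 (0.43) and Itga1 (0.44). Lrig1 had 18.8, 268 and 243 normalized reads in OB and 148, 493 and 536 in BS, against 283, 294.7 and 249 in AG, so OB_257 and BS_287 were low for Lrig1 too.

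Within the tumour groups Spry4 and Dusp6 varied together, at a ratio that AG did not share. The log2 ratio of Spry4 to Dusp6 was 0.19, 0.41 and 0.10 in OB_257, OB_287 and OB_295 and 0.75, 0.24 and 0.63 in BS_287, BS_295 and BS_296, against -2.62, -2.46 and -2.63 in AG. The tumour libraries stayed within 0.10 to 0.75 although Dusp6 itself ranged 16.2-fold among them and Spry4 21.9-fold. The pair was picked after its values were seen, so the ratio is a description and was not tested, and since it compares transcripts of different length its absolute size has no meaning.

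**Figure D2:**
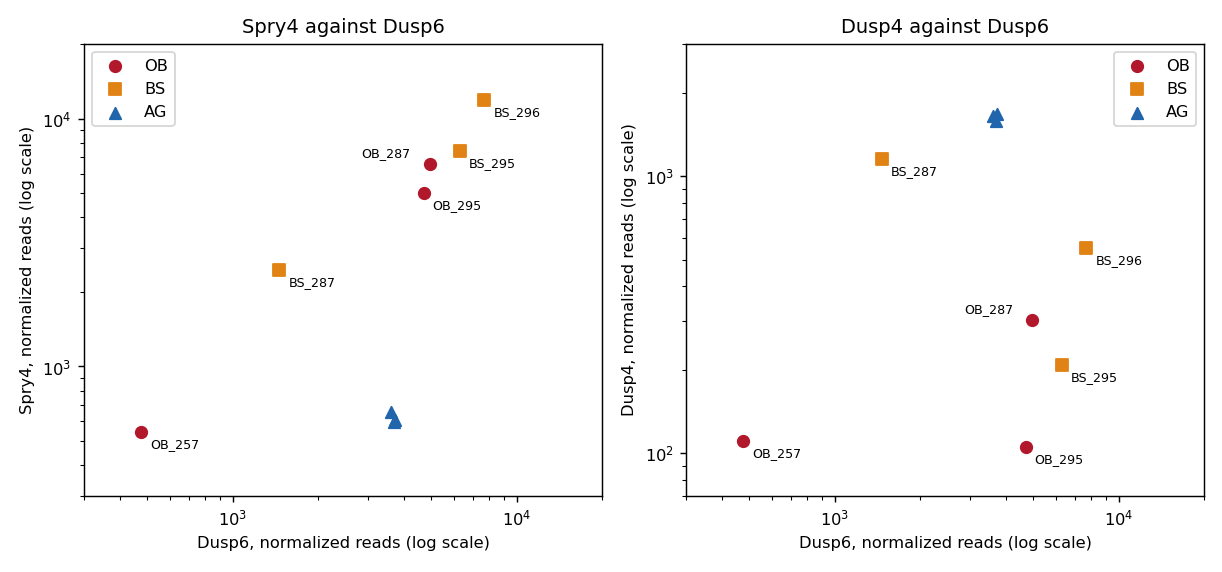
Spry4 (left) and Dusp4 (right) against Dusp6 in normalized reads, both axes on a log scale, with 1 point per library. The 6 tumour points of OB and BS climb together for Spry4, from 544 in OB_257 to 11887 in BS_296, while the AG points sit at 596 to 654, and for Dusp4 no such line is seen.

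Dusp4 and Dusp5, phosphatases of the nucleus that are also induced by ERK, fell in OB against AG. Dusp4 had 110.5, 303 and 105 normalized reads in OB_257, OB_287 and OB_295 and 1155, 208 and 551 in BS_287, BS_295 and BS_296, against 1673, 1643 and 1579 in AG. Every tumour library lay below AG, and the highest was BS_287. Dusp4 fell by 3.41 ± 0.62 (SE) in OB against AG on the log2 scale, a 10.7-fold lower level (limma adjusted p = 0.00323), and stayed called in each of the 9 fits without 1 library. In BS against AG it differed by -1.68 ± 0.62, which did not pass (limma adjusted p = 0.0649). Without BS_287 it was called in BS, at -2.26 (limma adjusted p = 0.0164), and also without OB_287 (limma adjusted p = 0.0466).

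Dusp5 had 60.8, 256 and 45.65 normalized reads in OB and 539, 141 and 313 in BS_287, BS_295 and BS_296, against 361, 402 and 348.5 in AG. OB lay below AG, and BS lay on both sides of it. Dusp5 fell by 2.04 ± 0.68 (SE) in OB against AG (limma adjusted p = 0.0468), close to the threshold of 0.05. The call was lost when any AG library, BS_296, OB_257 or OB_295 was left out, with limma adjusted p up to 0.137, and neither edgeR (adjusted p = 0.117) nor DESeq2 (adjusted p = 0.0559) called it. It was also lost in limma under upper-quartile rescaling (adjusted p = 0.0627), quantile normalization (0.0599) and variance without a trend (0.0549). In BS against AG the difference was -0.36, with a 95% interval of -1.91 to 1.19 (limma adjusted p = 0.714). Dusp5 in OB_295 had the fewest reads of any member in any library, 42, with an exact 95% Poisson interval of 30.3 to 56.8, so counting error is small beside the 5.61-fold range between OB libraries.

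Phlda1 and Ier3, ERK-responsive genes that are not phosphatases, were lower in OB against AG. Phlda1, which encodes a pleckstrin homology-like protein, had 193, 1301 and 1053 normalized reads in OB_257, OB_287 and OB_295 and 1835, 1345 and 2399 in BS_287, BS_295 and BS_296, against 3344, 2842 and 2631 in AG. The 3 groups did not overlap, with OB lowest and AG highest. Phlda1 fell by 2.18 ± 0.63 (SE) in OB against AG (limma adjusted p = 0.0280), and by 1.32 without OB_257 (limma adjusted p = 0.00588). The call was lost without any single AG library (limma adjusted p from 0.0734 to 0.0920) and in a fit of OB and AG alone (limma adjusted p = 0.0516). In BS against AG the difference was -0.69, which did not pass (limma adjusted p = 0.432) although the groups lay apart, and without OB_257 in the shared fit it was called (limma adjusted p = 0.0445).

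Ier3, an immediate early gene linked to cell survival, fell in both tumour groups. It had 1123, 669 and 488 normalized reads in OB and 1505, 336 and 1222 in BS_287, BS_295 and BS_296, against 3227, 2943 and 2669 in AG. Every tumour library lay below every AG library. Ier3 fell by 2.04 ± 0.54 (SE) in OB against AG (limma adjusted p = 0.0193) and by 1.78 ± 0.54 in BS against AG (limma adjusted p = 0.0330). The OB call was lost without any single AG library or OB_295 (limma adjusted p from 0.0563 to 0.0698), and the BS call without any single AG library (limma adjusted p from 0.0833 to 0.103). edgeR called Ier3 in OB (adjusted p = 0.0247) and not in BS (adjusted p = 0.0591). In limma the BS call was also lost under upper-quartile rescaling (adjusted p = 0.0511) and quantile normalization (0.0617).

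Counted over the 10 members, 1 rose (Nf1) and 4 fell (Dusp4, Dusp5, Phlda1 and Ier3) in OB against AG, where limma called 34.9% of all 10576 tested genes, 16% higher and 19% lower. The median member difference was -0.53, against -0.01 over all tested genes. In BS against AG 3 members rose (Nf1, Spry2 and Spry4) and 1 fell (Ier3), where 35.1% of all tested genes were called, 15.6% higher and 19.5% lower, and the median was 0.16 against -0.03 over all tested genes. The shares of members called were near those of all genes and are no result about the members. edgeR called 5 members in OB against AG, where it called 35.2% of genes, and 3 in BS against AG, where it called 34.8%. Without any single AG library limma called 2 members (Nf1 and Dusp4) in OB against AG, where 20.5% to 20.6% of genes were called, and 1 (Nf1) in BS against AG, where 19.6% to 20% were. Without OB_295 it called 3 members in OB, where 30.3% of genes were called, and without BS_295 or BS_296 it called 2 in BS, where 32.3% and 29.3% were. OB and AG libraries did not overlap for 6 members, against 58.3% of all tested genes, and BS and AG libraries for 7 members, against 58.4%. An alternative chosen after seeing the data left out OB_257 and BS_287 together, so its counts are a description only. It called 7 members in OB against AG (4 higher and 3 lower), where 45.4% of genes were called. In BS against AG it called 6 (4 higher and 2 lower), where 45.6% were. In OB against BS it gave 0 members, where 0.614% of genes were called. Both comparisons against AG use the same AG libraries.

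**Figure D3:**
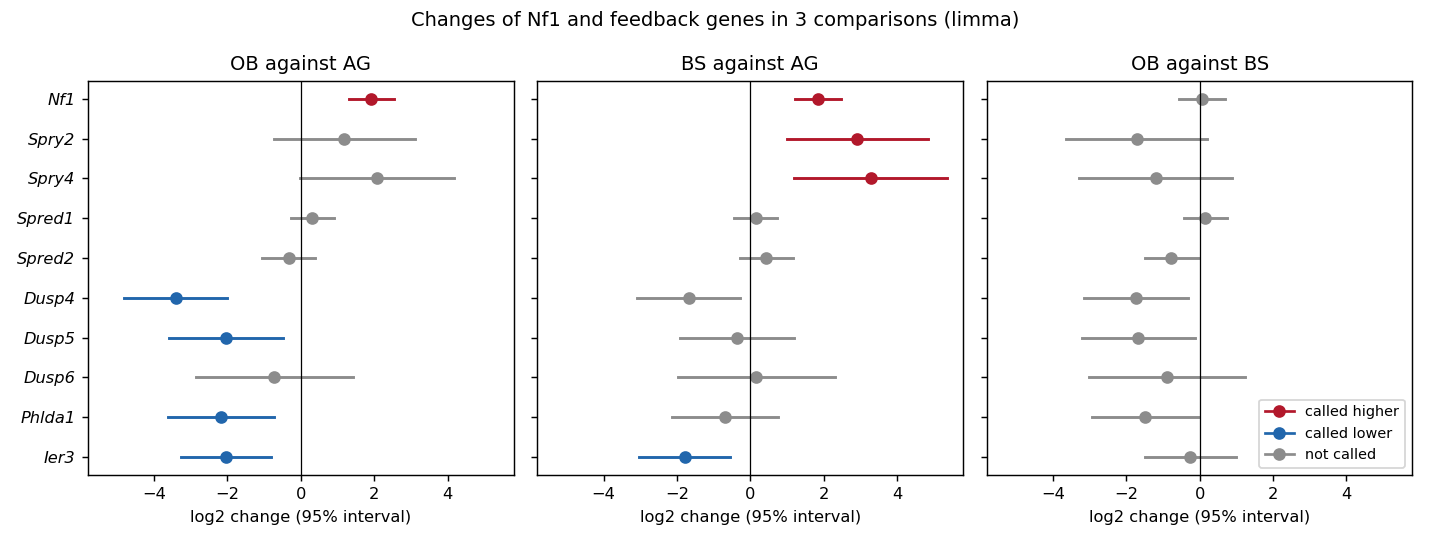
Log2 change of each of the 10 genes in OB against AG, BS against AG and OB against BS, with points for the limma estimate and lines for the 95% interval, coloured by whether the gene was called. Nf1 lies near 1.9 with short intervals in both comparisons against AG, and all points of OB against BS are uncalled.

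Between the tumour sites, limma called 0 of the 10 members and 0 of 10576 genes (0% called). At an unadjusted p under 0.05 limma gave 1019 genes, among them Spred2, Dusp4, Dusp5 and Phlda1, all lower in OB. edgeR called 0 genes, and DESeq2 called 237, none of them a member. The groups did not overlap for 1 member, Phlda1, against 9.99% of all tested genes. Phlda1 was lower in OB by a log2 difference of -1.49 with a 95% interval of -2.94 to -0.04 (limma adjusted p = 0.504), Dusp4 by -1.74 with an interval of -3.14 to -0.33 (limma adjusted p = 0.448) and Dusp5 by -1.67 with an interval of -3.22 to -0.13 (limma adjusted p = 0.487). For Phlda1, Dusp4 and Dusp5 the log2 SD was larger in OB and in BS than in AG. For Dusp4 it was 0.85 in OB and 1.24 in BS, against 0.04 in AG. Since the fit shares its spread with AG, these intervals and the unadjusted p-values can understate the uncertainty between OB and BS. The intervals allow differences of several fold, so a shared level at the 2 sites was not shown.

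**Figure D4:**
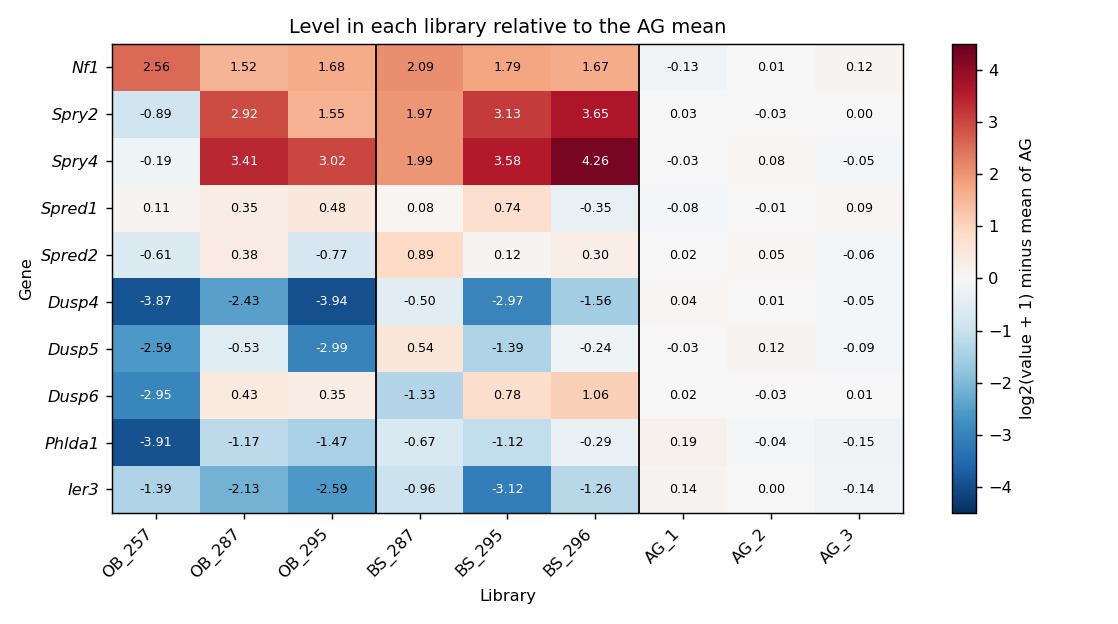
Level of each gene (vertical) in each library (horizontal) as log2(normalized reads + 1) minus the AG mean, with colour as the log2 difference. Spry2 and Spry4 are above the AG mean in 5 of 6 tumour libraries, Dusp4, Phlda1 and Ier3 are below it in all 6, and OB_257 is the lowest library for Spry2, Spry4, Dusp6 and Phlda1.

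Ranked over the 9 libraries, the members fell into different orders. OB_257 was lowest for Spry2, Spry4, Dusp6 and Phlda1 and highest for Nf1, so the library low in feedback transcripts was not low throughout. BS_287 was lower than the other BS libraries for Spry2, Spry4 and Dusp6 and higher than them for Dusp4, Dusp5 and Ier3. Its Foxr2 level, 12567 normalized reads, was the highest of all libraries. The log2 ratio of Dusp6 to Dusp4 was 2.09, 4.03 and 5.46 in OB_257, OB_287 and OB_295 and 0.34, 4.92 and 3.80 in BS_287, BS_295 and BS_296, against 1.16, 1.14 and 1.22 in AG. BS_287 was the only tumour library below AG for this ratio, which was picked after its values were seen.

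Other genes of the pathway were taken from 8 lists of 62 genes by role, of which 39 were tested. In OB against AG 3 rose and 13 fell, with a median of -0.16, where 16% of all tested genes rose and 19% fell, with a median of -0.01. In BS against AG 1 rose and 10 fell, with a median of -0.35, where 15.6% of all tested genes rose and 19.5% fell, with a median of -0.03. In OB against BS none passed by limma. Among the 7 other MAPK phosphatases, Dusp9 rose in OB against AG, averaging 123 ± 98.3 normalized reads in OB and 35.9 ± 23.1 in BS, against 8.80 ± 1.96 in AG (limma adjusted p = 0.00386 for OB). Dusp1, an immediate early phosphatase of the nucleus, fell in both, averaging 901 ± 278 in OB and 1153 ± 647 in BS, against 4102 ± 217 in AG (limma adjusted p = 0.00393 for OB and 0.00698 for BS).

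Among the RAS GAPs other than Nf1, which share its catalytic role, Rasa3 rose and Rasa1 fell in OB against AG, and Rasa1 fell in BS against AG. Rasa3 averaged 9786 ± 3784 in OB and 9406 ± 5396 in BS, against 2784 ± 59.6 in AG, with a log2 change of 1.73 in OB (limma adjusted p = 0.0333) and 1.51 in BS, which did not pass (limma adjusted p = 0.0545). The OB calls of Rasa3 and Rasa1 were each lost without any single AG library, OB_257 or OB_295, with limma adjusted p up to 0.0936 for Rasa3 and 0.0824 for Rasa1. The BS call of Rasa1 was lost without any single AG library, BS_295, BS_296 or OB_295 (limma adjusted p up to 0.119). Of 5 RAS genes tested, Rras2 fell in both, averaging 416 ± 194 in OB and 236 ± 130 in BS, against 3016 ± 93.3 in AG, and Mras fell in OB against AG, a call lost without any single AG library (limma adjusted p up to 0.0766). No RAS gene rose by limma.

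Upstream of RAS, 1 of 7 tested adaptors and exchange factors rose and 3 fell in each comparison against AG, where 34.9% of all tested genes were called in OB and 35.1% in BS. The rise was Rasgrf2, an exchange factor, averaging 149.6 ± 93.1 in OB and 68.9 ± 88.5 in BS, against 2.25 ± 1.16 in AG, where it had 7 reads over all libraries. The counted transcript of Rasgrf1, its paralogue, went the other way, with 0, 0 and 1.09 normalized reads in OB and 0 in every BS library, against 74.2, 85.7 and 73.0 in AG. Rasgrf1 has 4 RefSeq transcripts and only 1 was counted, so its values near 0 are not read as low expression of the gene. Shc1, an adaptor of activated receptors, fell, averaging 71.1 ± 69.0 in OB and 40.7 ± 20.0 in BS, against 764 ± 124 in AG (limma adjusted p = 0.00236 for OB and 0.00135 for BS). Frs2, a docking protein of FGF receptors, fell by 0.52 in OB (limma adjusted p = 0.0303) and by 0.47 in BS (limma adjusted p = 0.0455), and both calls were lost without any single AG library and without some tumour libraries, OB_257 and OB_295 for OB and BS_296 and OB_295 for BS (limma adjusted p up to 0.173). The Rasgrf2 call in BS was lost without AG_2 (limma adjusted p = 0.0627).

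In the kinase cascade, Mapk3 and Araf fell in both comparisons against AG, and no tested gene of this list rose by limma. Mapk3, which encodes ERK1, averaged 4052 ± 1522 in OB and 3625 ± 1163 in BS, against 11171 ± 390.2 in AG, with log2 changes of -1.52 in OB (limma adjusted p = 0.00550) and -1.68 in BS (limma adjusted p = 0.00352). Araf fell by 0.65 in OB (limma adjusted p = 0.0476) and 0.87 in BS (limma adjusted p = 0.0154). The BS call of Araf was lost without any single AG library (limma adjusted p up to 0.0705), and the OB call without any single library other than OB_295 (limma adjusted p up to 0.156). Cic, which encodes the repressor whose motif is shown above, averaged 383 ± 33.6 in OB and 537 ± 26.9 in BS, against 696.5 ± 156 in AG, and fell in OB by 0.84 (limma adjusted p = 0.0138) without passing in BS. The Cic call was lost without AG_1 or AG_2 (limma adjusted p up to 0.0750). These are transcript levels and hold no measure of ERK phosphorylation.

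**Figure D5:**
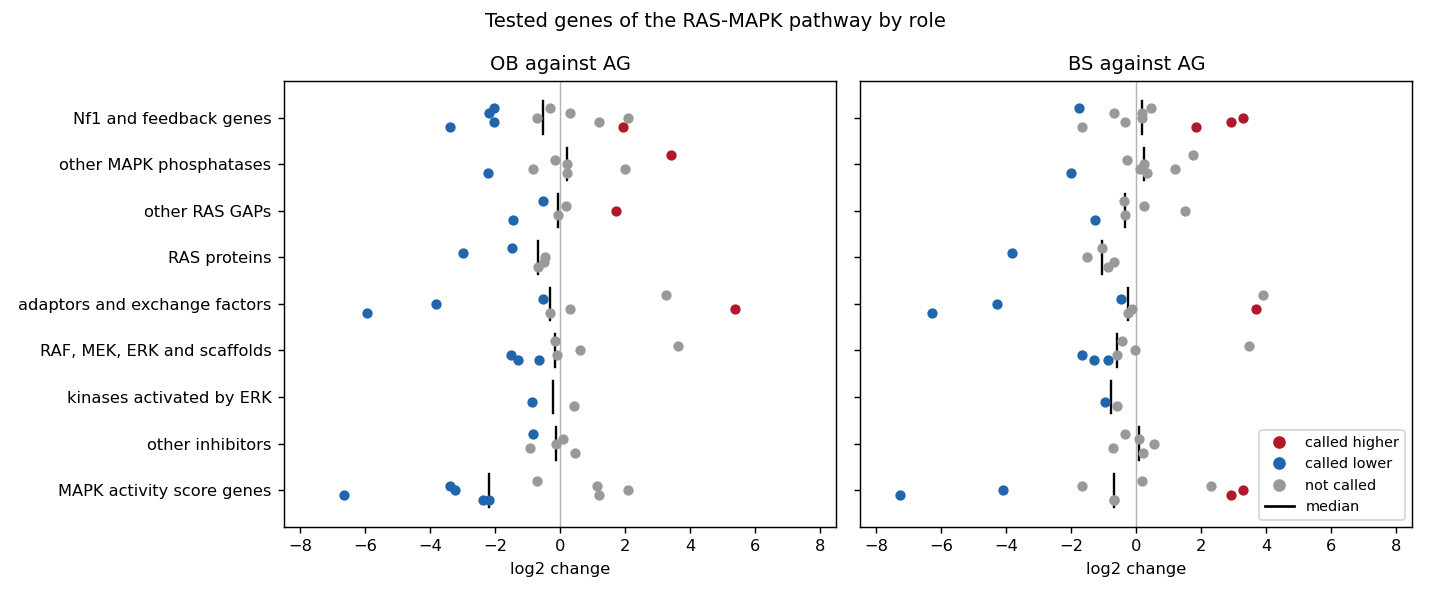
Log2 change of the tested genes of each list in OB against AG (left) and BS against AG (right), 1 point per gene, coloured by whether limma called it, with a line at the median of the list. Medians of the lists plotted, which leave out a list with 1 tested gene, run from -2.18 for the MAPK activity score genes to 0.20 for other MAPK phosphatases in OB, and from -1.05 for RAS proteins to 0.24 for other MAPK phosphatases in BS.

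A 10-gene score of MAPK activity known from cancer cell lines shares Spry2, Spry4, Dusp4, Dusp6 and Phlda1 with the members. Of its 9 genes tested, 0 rose and 5 fell in OB against AG, where 19% of all tested genes fell, with a median of -2.18 against -0.01 over all tested genes. Of the same 9 genes 2 rose and 2 fell in BS against AG, where 15.6% of all tested genes rose and 19.5% fell, with a median of -0.68 against -0.03. Epha2, an ephrin receptor, averaged 73.5 ± 28.1 in OB and 52.9 ± 32.8 in BS, against 7262 ± 424 in AG. Epha4 averaged 517 ± 44.1 in OB and 288 ± 92.9 in BS, against 4856 ± 304 in AG. Ccnd1, which encodes cyclin D1, fell in OB against AG, averaging 9219 ± 4554 in OB and 27296 ± 4742 in BS, against 43332 ± 1785 in AG (limma adjusted p = 0.00119 for OB). Etv5, an ETS factor induced by ERK, averaged 34.8 ± 28.5 in OB and 59.1 ± 34.5 in BS, against 10.1 ± 1.83 in AG, with a log2 difference of 2.29 in BS that did not pass (limma adjusted p = 0.0731). Etv5 has 2 RefSeq transcripts and 1 was counted, so its low values are not read as low expression.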

How the data were processed

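RNA of 9 mouse libraries was sequenced after a stranded TruSeq preparation, per the labels' protocols. Per the submitters' processing notes, mouse build mm9, HISAT2 2.1.0, DESeq2 1.20.0, Subread 1.6.2 with featureCounts, and bcl2fastq 1.8.4 were used, with no role or order stated. The annotation and the strand setting are not stated in the sources used here. The deposited signal values are the authors' reads per RefSeq transcript divided by a size factor per library (0.905 to 1.2): 100.0% of values gave whole reads within 0.05. Of 16260 transcripts, 16202 were named from a RefSeq table, 41 from a GENCODE table, and 17, with 0.461% of reads, were left out. Values were summed per symbol. Every member has 1 RefSeq transcript in the table except Spred1, which has 2. The median value was 258.6 for transcripts of genes with 1 and 12.57 for those of genes with 2, so low values of genes with several transcripts are not read as low expression.

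Genes with 10 normalized reads in 3 libraries were tested on log2(value + 1) by limma 3.58.1 in R 4.3.3, with 1 fit of 3 groups, a variance trend, two-sided p-values adjusted by Benjamini and Hochberg's method in each of 3 comparisons, and called at an adjusted p under 0.05. A sentence giving an edgeR p refers to edgeR 4.0.16 with the quasi-likelihood test on recovered reads. The steps were tested on simulated data. The members and gene lists were chosen with earlier results of these data known. Named were all members, nested genes of Nf1, up to 4 called genes of each list by size of change, and the 5 profiles nearest to Nf1, Spry4 and Dusp6, beside library facts. Not every gene so picked is given, and some results are not reported here. Alternatives were pseudocounts of 0.5 and 5, other filters, rescaling, quantile normalization, other variance models, the compared groups alone, edgeR, DESeq2 1.42.0, the highest transcript per gene, a block for the title number, and fits without 1 library. Intervals of reads are exact and cover counting error only.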

Additional observations from a re-analysis of the deposited data

How the results depend on the processing

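Counts of calls in OB against AG (3695 genes, 5 members) and BS against AG (3712 genes, 4 members) stayed within 1.5 times in every alternative that kept all libraries. Leaving out 1 library gave 2086 to 4123 genes and 2 to 6 members in OB against AG, and 2001 to 4344 genes and 1 to 5 members in BS against AG. The fewest came without an AG library, and for OB against BS the most came without OB_287. For OB against BS, with 0 genes by the limma fit described, pseudocounts of 0.5 and 5 gave 4 and 6 genes, quantile normalization 3, variance without a trend 2 and DESeq2 237, and leaving out 1 library 0 to 67, with 0 members in all of these. Leaving out OB_257 and BS_287 together, chosen after seeing the data, gave 63 genes and 0 members.

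Signs turned only for members not called with all libraries. In OB against AG Dusp6 was 0.39 without both of these libraries and -1.30 to 0.39 with 1 left out. With 1 left out, BS against AG ran from -0.13 to 0.41 for Spred1, -0.81 to 0.15 for Dusp5 and -0.28 to 0.92 for Dusp6, and OB against BS from -0.92 to 0.16 for Ier3, -0.25 to 0.27 for Nf1, -0.10 to 0.44 for Spred1 and -1.64 to 0.22 for Dusp6. Nf1 in OB against BS was -0.13 without both libraries. The causes were not tested. Upper-quartile rescaling moved the median of all genes to 0.126 in OB and 0.145 in BS against AG, and under it no member changed sign, while Dusp5 in OB (limma adjusted p = 0.0627) and Ier3 in BS (limma adjusted p = 0.0511) lost their calls.

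OB_287 shares its title number with BS_287, and OB_295 with BS_295. Deviations of same-numbered libraries correlated at 0.069 and 0.299, and over 2 pairs this does not settle whether the numbers pair the libraries. With the number as a block, OB against BS had 0 genes and 0 members called, and the sign turned for Nf1 (-0.34), Spry4 (0.43) and Dusp6 (0.67), none called. No paired analysis was possible against AG because its numbers are not shared with the tumour titles. Depth was not limiting for the members, since the lowest had 42 reads in a library.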
